A study of Mus musculus with 12 samples.

Results

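The 56 genes described here drive or mark cell division: cyclins and cyclin-dependent kinases, mitotic kinases and spindle proteins, the helicase and other factors that start DNA replication, enzymes that supply nucleotides, and the transcription factors that switch these genes on. They form a list of gene symbols drawn up with earlier results of these data known, with no threshold on a measured value, and all 56 were found among the 29965 genes listed for normoxia/normoglycemia and the 29775 listed after oxygen-glucose deprivation, of which 27321 are in both. RNA-seq was done on primary brain endothelial cells (BECs) cultured from the brains of C57BL/6 mice (C57BL/6J in the study's methods, which give an age of 8 weeks for the Cort+/+ mice), either wild type (Cort+/+) or lacking cortistatin, a neuropeptide, through a constitutive deletion (Cort-/-). Cultures were kept under normoxia and normoglycemia (NX/NG, 21% O2 and 5.5 mM glucose) or were deprived of oxygen (1% O2) and glucose for 4 h and reoxygenated for 20 h (OGD-R), a cell culture stand-in for ischemic stroke. Each replicate pooled cells of 3 mice, and in all groups the cells had been enriched with puromycin for 60 h in culture before the experiment. GEO's labels also carry a stroke model (MCAO) as the disease state of every sample. Of 12 labelled samples, 10 were used: 3 Cort+/+ and 2 Cort-/- libraries under NX/NG, and 3 Cort+/+ and 2 Cort-/- libraries after OGD-R. Replicate 3 of Cort-/- under NX/NG and replicate 2 of Cort-/- after OGD-R were not used here.

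Most genes of this kind are periodic. E2F factors, released from the retinoblastoma pocket proteins once cyclin D with its kinases has phosphorylated them, switch on replication genes near the start of S phase, and a later wave led by MYBL2, FOXM1 and the MuvB core switches on mitotic genes before division. In the adult brain vessel wall endothelial cells are almost all at rest, whereas in primary culture they divide, and mitogens act there largely through cyclin D1.

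The read totals on genes were nearly equal in the 10 libraries, from 12386048 to 12390428. Without ribosomal RNA, whose share differed between libraries, the depth was less even. Cort itself had 0 reads in each of the 4 Cort-/- libraries and 0 to 2 reads in each of the 6 Cort+/+ libraries, too few to check a label. The 12 endothelial markers examined (Cldn5, Pecam1, Cdh5 and others) were detected in every library, and summed to between 1092 and 1600 RPKM (reads per kilobase of gene, scaled to sequencing depth, the deposited unit). The 6 smooth muscle markers, which include the actin gene Acta2 and the actin-binding gene Tagln, summed to between 1055 and 1815 RPKM. The 9 fibroblast and leptomeningeal markers summed to between 70.4 and 301 RPKM. Epithelial, choroid plexus, pericyte, macrophage, astrocyte, oligodendrocyte and neuronal lists each summed to at most 73.7 RPKM in any library. Ribosomal RNA (Rn18s-rs5) set 2 libraries apart before any result: its share of reads was 0.0775% in replicate 1 of Cort+/+ after OGD-R, and 0.0951% in replicate 3 of Cort-/- after OGD-R, against 7.64% to 15.8% in the other 8. The summaries that rest on these 2 libraries are given with and without them.

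Promoters are shown because members that peak together in dividing cells often share motifs just before the transcription start: CCAAT boxes with a cell cycle genes homology region (CHR) in mitotic genes, and E2F sites in replication genes. RefSeq sequence for GRCm38.p6 was matched by symbol for 44 of the 56 members, and motifs were searched on both strands of the 250 bases before the start. They were the box CCAAT itself, the CHR in the form TTTGAA or in its variant form TTTAAA, and the E2F site in the form TTTCCCGC or in the form TTTGGCGC. TTTAAA reads the same on both strands, and no hit printed here shares letters with another. The 12 members with no entry were Kif20a, Cdc25c, Chmp4c, Aurkb, Foxm1, Tpx2, Ccnd2, Gins2, Ccne2, Ccnd1, Mcm4 and Ccna2. Printed below are mitotic cyclin B1 (Ccnb1, chr13:100786487-100786736, minus strand), the mitotic kinase Plk1 (chr7:122159185-122159434, plus strand), the helicase subunit Mcm5 (chr8:75109259-75109508, plus strand), the origin-firing factor Ticrr (chr7:79659946-79660195, plus strand) and the replication checkpoint adaptor Clspn (chr4:126556730-126556979, plus strand) because the results turn on them. Each runs 5′ to 3′ on the gene's own strand and ends at the base before the start, with motif letters in capitals.
Ccnb1: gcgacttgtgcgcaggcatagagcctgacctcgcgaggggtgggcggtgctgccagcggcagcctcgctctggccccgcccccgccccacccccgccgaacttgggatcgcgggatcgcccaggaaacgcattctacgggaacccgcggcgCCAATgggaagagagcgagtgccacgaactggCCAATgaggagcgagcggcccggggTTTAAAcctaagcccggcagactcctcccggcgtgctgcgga
Plk1: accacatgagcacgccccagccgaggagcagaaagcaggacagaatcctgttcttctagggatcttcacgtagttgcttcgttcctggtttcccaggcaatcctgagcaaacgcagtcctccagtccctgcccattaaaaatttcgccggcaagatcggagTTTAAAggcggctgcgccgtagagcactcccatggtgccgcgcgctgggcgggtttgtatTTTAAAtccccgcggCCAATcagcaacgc
Mcm5: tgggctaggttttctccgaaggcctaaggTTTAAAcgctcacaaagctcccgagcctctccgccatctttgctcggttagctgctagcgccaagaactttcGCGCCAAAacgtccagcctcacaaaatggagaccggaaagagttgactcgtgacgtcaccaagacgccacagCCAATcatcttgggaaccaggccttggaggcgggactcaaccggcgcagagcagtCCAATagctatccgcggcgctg
Ticrr: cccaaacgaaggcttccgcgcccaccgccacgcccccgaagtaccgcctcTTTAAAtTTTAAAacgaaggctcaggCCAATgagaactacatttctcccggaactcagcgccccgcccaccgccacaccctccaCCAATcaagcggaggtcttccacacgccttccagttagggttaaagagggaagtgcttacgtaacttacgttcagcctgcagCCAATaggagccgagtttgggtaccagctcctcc
Clspn: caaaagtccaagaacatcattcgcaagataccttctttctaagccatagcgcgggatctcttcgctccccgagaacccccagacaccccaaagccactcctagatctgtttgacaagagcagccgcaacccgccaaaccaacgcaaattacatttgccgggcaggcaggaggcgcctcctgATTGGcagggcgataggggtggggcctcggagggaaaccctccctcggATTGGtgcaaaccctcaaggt
Ccnb1 held CCAAT boxes beginning 99 and 67 bases before the start and a TTTAAA beginning 42 bases before it. Mcm5 was the only gene of these 5 with a searched E2F motif, which began 149 bases before the start and lay on the opposite strand. CCAAT was found before 32 of the 44 members (72.7%), against 37.5% of all 27025 symbols in the table, and 19 members (43.2%) held CCAAT more than once, against 11.5%. Either CHR form was found in 19 members (43.2% against 28.1%), and either E2F form in 5 (11.4% against 1.51%): Cdk2, Mcm5, Mcm6, Mcm7 and Cdc6. A match describes letters only and says nothing about binding in these cells.

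All 56 members were expressed. Of them 21 had a mean of at least 10 RPKM over the 10 libraries, 32 had a mean between 2 and 10 RPKM, and 3 (Chek1, Ticrr and Cdc25c) had a mean under 2 RPKM, with 0.758 RPKM the lowest value of any member in any library. Ccnd1 (cyclin D1) was the highest member in every library, at 132 to 249.5 RPKM, followed by Ccnd2 (cyclin D2) at 84.7 to 119 RPKM and Pcna, the sliding clamp of replication, at 31.4 to 45.6 RPKM. These 3 were separated from each other and from the next gene, Rrm2, by ranges that did not overlap. These were 3 of 55 neighbouring pairs in the order of levels, and the rest overlapped. The tables of the environments were normalized separately, so this order holds across tables only as far as their scales agree. The highest library exceeded the lowest by 1.54-fold in the median member, from 1.24-fold for Ccne1 to 2.05-fold for Chmp4c. This ratio also spans the separately normalized tables, and it was not computed for all genes.

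**Figure D1:**
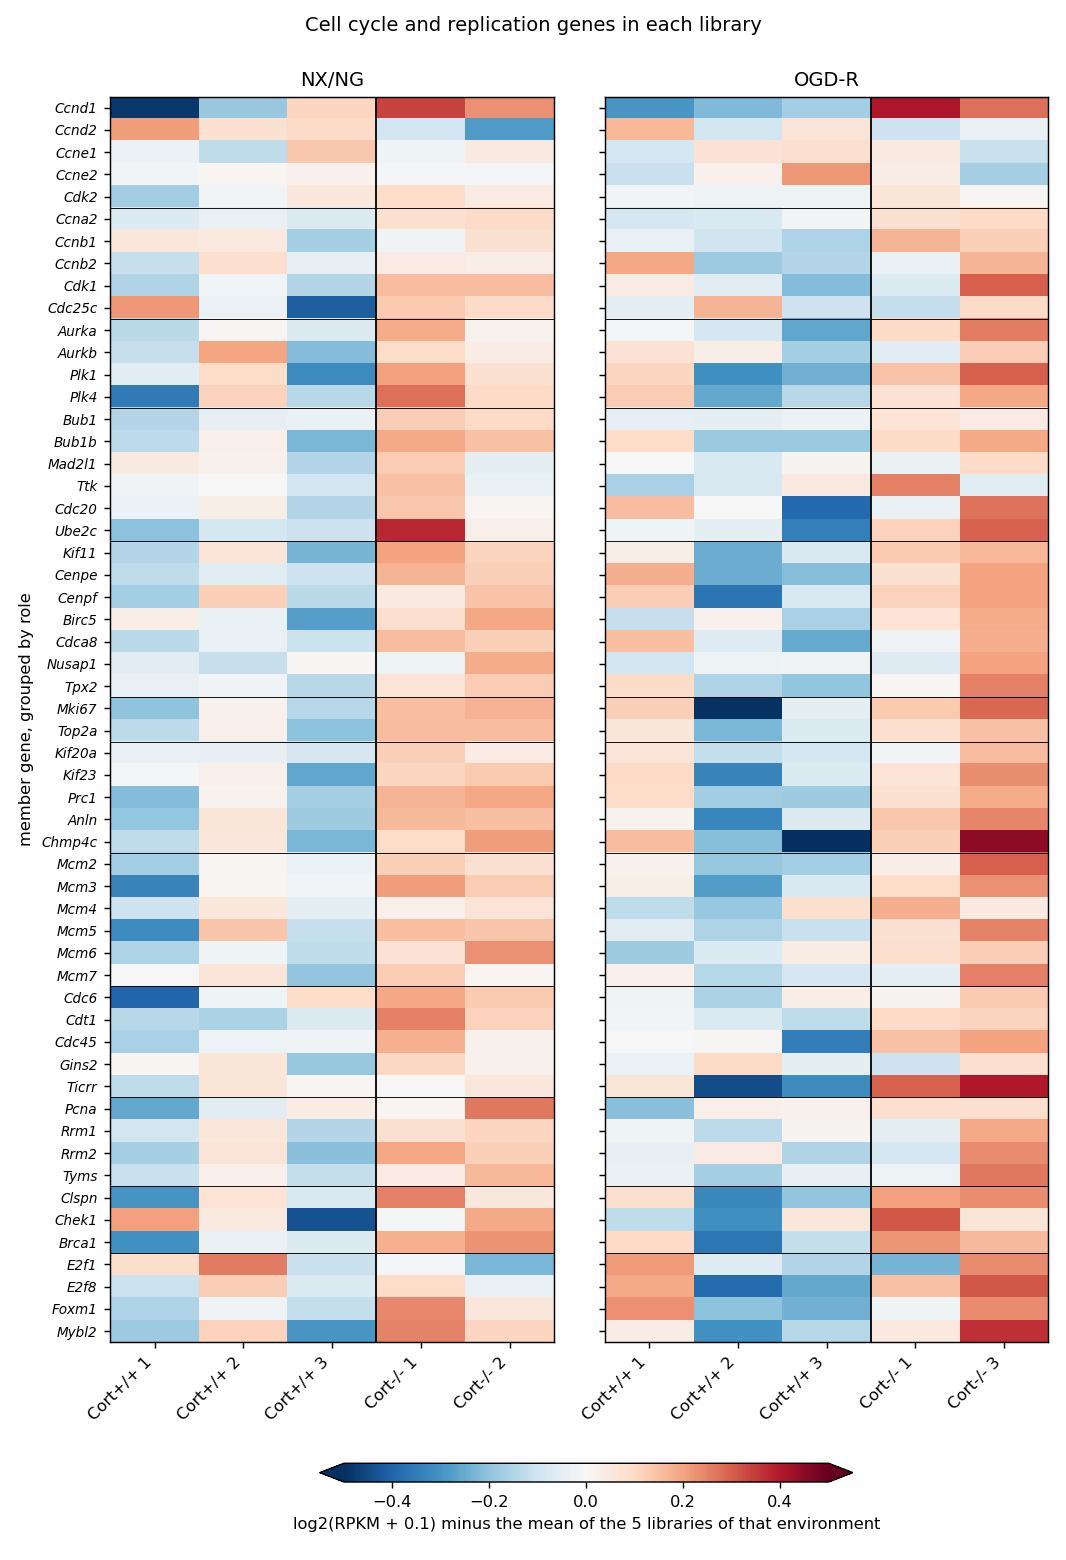
Level of each of the 56 members (rows, grouped by role) in each library (columns, named by genotype and replicate), as log2(RPKM + 0.1) minus the mean of the 5 libraries of that environment; red is above and blue below that mean, and the colour scale ends at 0.5 either way. The Cort-/- libraries are mostly red and Cort-/- OGD-R replicate 3 is the highest of its environment for 42 members, while Ccnd2 and E2f1 depart from the rest.

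The first comparison asked whether BECs without cortistatin differed from wild type BECs when not deprived of oxygen and glucose. Under NX/NG nearly the whole set sat higher in Cort-/- BECs, by a small amount: 53 of 56 members had a log2 fold change (Cort-/- over Cort+/+) above 0, against 51.5% of the 15695 genes tested, with a median of 0.19 against 0.01 over all genes. No member passed the test, and neither did any other gene (limma, FDR of at most 0.05, 0 of 56 members and 0% of genes called; the lowest FDR of a member was 0.297). The count test limma-voom, run on reads recovered from RPKM, called 54 genes and 0 members. At an unadjusted p under 0.05 stood 17 members higher in Cort-/- BECs, against 5.03% of genes, and 1 lower, against 7.51%. In 31 members both Cort-/- libraries lay above all 3 Cort+/+ libraries, against 15.6% of genes, and in 1, Ccnd2, both lay below, against 16.5%. The count at an unadjusted p under 0.05 rested on single libraries. The 17 became 3 without Cort+/+ replicate 1, against 2.76% of genes, and 5 without Cort+/+ replicate 3, near the 8.2% of genes. Without Cort+/+ replicate 2 they became 19, against 4.05%. Leaving out Cort-/- replicate 1 or replicate 2, which left 1 Cort-/- library, gave medians of 0.18 and 0.19. Each time 51 or 52 members stayed above 0.

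The D-type cyclins, which bind CDK4 and CDK6 to start the cycle, differed in opposite directions. Ccnd1 was at 249.5 and 231 RPKM in the Cort-/- libraries, and at 141, 173 and 212 RPKM in the Cort+/+ libraries. Ccnd2 was at 96.5 and 84.7 RPKM in Cort-/- BECs, and at 119, 109 and 110.1 RPKM in Cort+/+ BECs. For both genes the genotypes did not overlap, Ccnd1 higher and Ccnd2 lower without cortistatin, with log2 fold changes of 0.47 (SE 0.18, limma FDR = 0.383) and −0.32 (SE 0.08, FDR = 0.297). The ratio of Ccnd1 to Ccnd2 within a library, which no scaling of that library can alter and which was examined after the values had been seen, was 2.59 and 2.73 in Cort-/- BECs and 1.19, 1.59 and 1.93 in Cort+/+ BECs. With Ccnd1 higher and Ccnd2 lower in each Cort-/- library, the ratio could not overlap either. An exact two-sided permutation test of the log2 ratio was thereby fixed at p = 0.2, the smallest that 2 against 3 libraries allow. It adds nothing to the values of the 2 genes. The E-type cyclins and their kinase, which act at the entry to S phase, showed much smaller differences: the log2 fold change was 0.02 for Ccne1, −0.02 for Ccne2 and 0.11 for Cdk2.

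Among the cyclins and kinase that act from S phase to mitosis, Ccna2 (cyclin A2) was at 15.3 and 15.4 RPKM in Cort-/- BECs and at 13.7, 14.03 and 13.7 RPKM in Cort+/+ BECs. Cdk1, their partner kinase, was at 13.7 and 13.7 RPKM against 11.04, 12.2 and 11.1 RPKM. Both genes were higher in each Cort-/- library than in any Cort+/+ library, by 0.15 (SE 0.05, limma FDR = 0.364) and 0.26 (SE 0.07, FDR = 0.302) on the log2 scale. Ccnb1 (6.26 and 6.68 RPKM against 6.60, 6.55 and 5.63 RPKM) and Ccnb2 overlapped between genotypes, as did Cdc25c, the phosphatase that activates CDK1. The mitotic kinases, which build the spindle and drive cytokinesis, were all above 0 by 0.11 to 0.31, and in 1 of 4, Aurka, the genotypes did not overlap. Plk1 was at 12.2 and 11.1 RPKM in Cort-/- BECs and at 10.1, 11.2 and 8.44 RPKM in Cort+/+ BECs (0.23, SE 0.13, FDR = 0.513).

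Genes of the spindle and of the checkpoint that holds anaphase back lay above 0 throughout. All 6 checkpoint and anaphase-promoting complex genes and all 7 spindle, kinetochore and passenger genes had log2 fold changes above 0, with medians of 0.15 and 0.23. Ube2c, the ubiquitin-conjugating enzyme of that complex, was at 16.0 and 12.6 RPKM in Cort-/- BECs and at 10.7, 11.6 and 11.4 RPKM in Cort+/+ BECs (0.33, SE 0.12, limma FDR = 0.364). Mki67 and Top2a are the usual markers of proliferation. Mki67 (Ki-67, a chromosome surface protein) was at 16.0 and 16.2 RPKM against 12.5, 14.6 and 13.0 RPKM, and Top2a (topoisomerase 2A) at 18.4 and 18.4 RPKM against 15.0, 16.8 and 14.3 RPKM. Their log2 fold changes were 0.27 (SE 0.08, FDR = 0.336) and 0.26 (SE 0.08, FDR = 0.343). All 5 cytokinesis genes had both Cort-/- libraries above all Cort+/+ libraries, among them Chmp4c, an ESCRT-III subunit of the abscission step, at 2.54 and 2.76 RPKM against 2.17, 2.47 and 2.01 RPKM (0.25, SE 0.13, FDR = 0.470). Birc5 (survivin, of the chromosomal passenger complex) did so too, at 7.95 and 8.58 RPKM against 7.67, 7.31 and 6.17 RPKM.

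Replication genes lay in the same range. The 6 subunits of the MCM helicase, which unwinds DNA at the fork, had log2 fold changes of 0.08 to 0.28, and in 4 of them (Mcm2, Mcm3, Mcm5 and Mcm6) the genotypes did not overlap. Mcm5 was at 12.7 and 12.6 RPKM in Cort-/- BECs and at 9.17, 12.6 and 10.6 RPKM in Cort+/+ BECs, so that its Cort+/+ replicate 2 all but reached the Cort-/- values. Of the licensing and firing factors, Cdt1, which loads the helicase, was at 4.82 and 4.39 RPKM against 3.66, 3.61 and 3.84 RPKM (0.31, SE 0.08, limma FDR = 0.304). Its partner Cdc6 was at 3.22 and 3.08 RPKM against 2.11, 2.77 and 3.00 RPKM (0.27, SE 0.17). Ticrr (treslin), which fires origins with the CDC45 and GINS proteins, was at 1.03 and 1.07 RPKM against 0.929, 1.07 and 1.03 RPKM, and overlapped fully (0.05, SE 0.17, FDR = 0.929). Pcna (37.8 and 45.1 RPKM against 31.4, 36.1 and 38.5 RPKM) overlapped, and Rrm2, the regulated subunit of ribonucleotide reductase, did not (25.4 and 24.1 RPKM against 19.8, 23.2 and 19.2 RPKM).

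All 3 checkpoint and repair genes were above 0, with a median of 0.25, whereas the transcription factors were mixed in direction. Brca1 was at 2.64 and 2.73 RPKM in Cort-/- BECs and at 1.86, 2.27 and 2.20 RPKM in Cort+/+ BECs (0.34, SE 0.12, limma FDR = 0.374), without overlap. Clspn (claspin), which brings CHK1 to ATR at stalled forks, was at 4.36 and 3.79 RPKM against 2.95, 3.83 and 3.45 RPKM (0.25, SE 0.14, FDR = 0.497) and overlapped with Cort+/+ replicate 2. Foxm1, which drives mitotic genes, was at 9.09 and 7.99 RPKM against 6.89, 7.54 and 7.07 RPKM (0.25, SE 0.09, FDR = 0.360), without overlap, and Mybl2 at 2.76 and 2.497 RPKM against 2.03, 2.51 and 1.87 RPKM (0.30, SE 0.15), with overlap. E2f1 was the transcription factor that differed in direction, at 8.68 and 7.43 RPKM against 9.28, 10.5 and 8.08 RPKM (−0.20, SE 0.13, FDR = 0.577), and its genotypes overlapped.

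**Figure D2:**
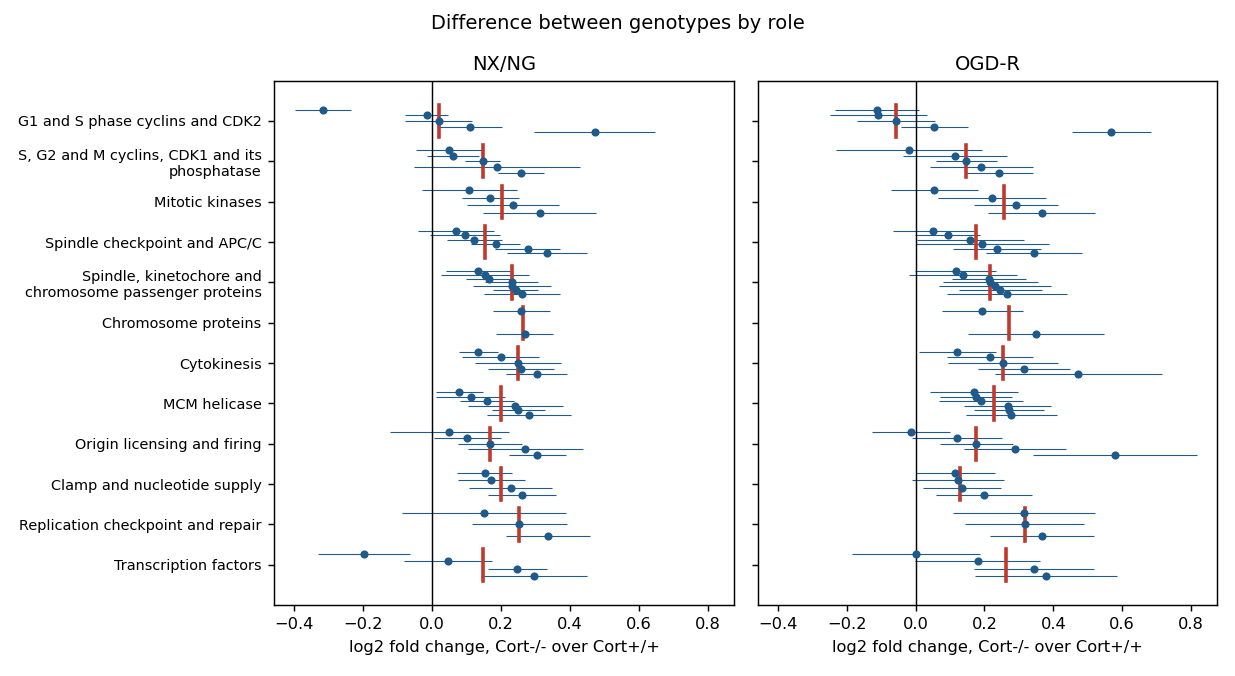
Log2 fold change of Cort-/- over Cort+/+ BECs for each member (points, with SE bars from limma), by role, under NX/NG (left) and after OGD-R (right); red lines are the median of each role. Role medians lie above 0 for 12 of 12 roles under NX/NG and for 11 after OGD-R, and the widest spread is among the G1 and S phase cyclins, where Ccnd1 is highest and Ccnd2 lowest in both environments.

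Other values differed between the genotypes under NX/NG, where the sums of 7 of 10 marker lists did not overlap, 5 lower and 2 higher in Cort-/- BECs. Fibroblast and leptomeningeal markers summed to 101 and 70.4 RPKM in the Cort-/- libraries and to 238, 244 and 177 RPKM in the Cort+/+ libraries, and pericyte markers to 10.5 and 13.1 RPKM against 21.8, 26.6 and 21.7 RPKM. Macrophage and microglial markers (6.57 and 8.07 RPKM against 12.9 to 13.9 RPKM), neuronal markers (5.48 and 7.11 RPKM against 7.73 to 10.9 RPKM) and choroid plexus markers (18.4 and 18.9 RPKM against 20.8 to 23.2 RPKM) were lower too. Endothelial markers summed to 1395 and 1523 RPKM against 1092, 1106 and 1387 RPKM, and astrocyte markers to 2.03 and 2.78 RPKM against 1.42 to 1.73 RPKM. In bulk RNA, fewer cells of a type and less RNA per cell cannot be told apart, and the part of these shifts in the members' levels was not tested. Ribosomal RNA took 10.6% and 8.02% of reads in the Cort-/- libraries and 13.1%, 7.64% and 15.3% in the Cort+/+ libraries, and Cort+/+ replicate 2, with the least, had the highest median member level of its group. With a term for that share, 50 members stayed above 0 with a median of 0.15. At an unadjusted p under 0.05 then stood 6 higher members, against 4.51% of genes, and 1 lower, against 5.83%.

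After OGD-R the same question, asked of separate libraries, gave a difference of much the same size. Of the 56 members, 51 had a log2 fold change above 0, against 47.7% of the 15785 genes tested, with a median of 0.20 against −0.01 over all genes. No member and no other gene was called (limma, 0 of 56 members and 0% of genes at an FDR of at most 0.05; the lowest FDR of a member was 0.771, for Ccnd1), and limma-voom called 1 gene and 0 members. Higher in Cort-/- BECs at an unadjusted p under 0.05 stood 2 members, Ccnd1 and Mcm5, against 1.4% of genes, and 0 members stood lower, against 2.19%. In 27 members both Cort-/- libraries lay above all 3 Cort+/+ libraries, against 7.93% of genes, and in 0 members did both lie below, against 8.39%. The 2 libraries low in ribosomal RNA, 1 in each genotype, bore on the values. Without Cort+/+ replicate 1 the 2 members became 10, against 2% of genes, and the median 0.27. Without Cort-/- replicate 3 the median was 0.16, with 46 members above 0. The 2 members became 1 without Cort+/+ replicate 2 or Cort+/+ replicate 3, against 1.16% and 1.41% of genes. Without both libraries low in ribosomal RNA, 47 members were above 0 with a median of 0.21. In 42 members the lone Cort-/- library left then lay above both Cort+/+ libraries, against 34.4% of genes.

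Ccnd1 had the lowest unadjusted p of the members after OGD-R, at 214 and 196 RPKM in Cort-/- BECs and at 132, 139 and 144 RPKM in Cort+/+ BECs (0.57, SE 0.11, limma unadjusted p = 0.00303, FDR = 0.771). Ccnd2 was at 93.3 and 98.1 RPKM against 112, 94.0 and 104.7 RPKM (−0.11, SE 0.12, FDR = 0.999) and overlapped. The ratio of Ccnd1 to Ccnd2 was 2.30 and 2.00 in Cort-/- BECs and 1.18, 1.48 and 1.37 in Cort+/+ BECs, without overlap (exact two-sided permutation test, p = 0.2, the smallest possible). Of the E-type cyclins, Ccne1 was at 8.45 and 7.57 RPKM against 7.71, 8.63 and 8.67 RPKM, and Ccne2 at 6.22 and 5.39 RPKM against 5.605, 6.16 and 7.06 RPKM. Both overlapped, with log2 fold changes of −0.06 and −0.11, so the G1 group was the only role with a median below 0 (−0.06).

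The study's text names Ticrr and Chmp4c among cell cycle genes that were upregulated without cortistatin, by its own calls at an FDR of 0.05 or less. Ticrr and Chmp4c are given here with Clspn and Plk1, which act in the replication checkpoint and in mitosis. Ticrr was at 1.51 and 1.63 RPKM in Cort-/- BECs and at 1.27, 0.864 and 0.953 RPKM in Cort+/+ BECs, without overlap (0.58, SE 0.24, limma unadjusted p = 0.0525, FDR = 0.999). Clspn was at 4.79 and 4.89 RPKM against 4.38, 3.30 and 3.598 RPKM (0.37, SE 0.15, unadjusted p = 0.0532), and Plk1 at 14.8 and 16.5 RPKM against 14.5, 10.8 and 11.3 RPKM (0.37, SE 0.16, unadjusted p = 0.0587). Both were without overlap, although Cort+/+ replicate 1, low in ribosomal RNA, came close to the Cort-/- libraries in each. Chmp4c was at 2.13 and 2.70 RPKM against 2.18, 1.67 and 1.34 RPKM (0.47, SE 0.24, unadjusted p = 0.103) and overlapped with that same Cort+/+ library. None of these values passed at an FDR of at most 0.05, so the study's calls of Ticrr and Chmp4c were not reached here. The study describes 3 replicates and used its own pipeline, whereas 2 Cort-/- libraries were fitted here. The reason for the difference was not tested.

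**Figure D3:**
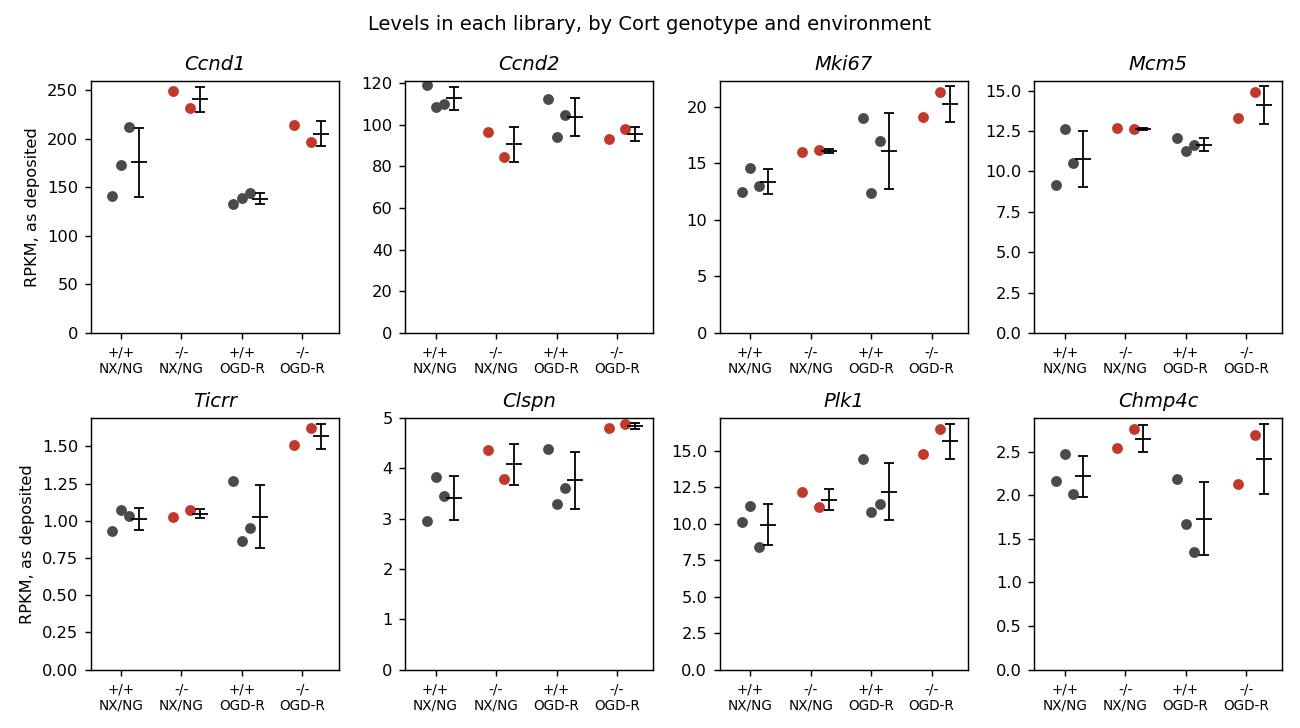
Deposited RPKM of 8 members in each library (points; grey Cort+/+, red Cort-/-), with the mean and SD of each group beside its points; the NX/NG and OGD-R tables were normalized separately. Ccnd1 in Cort-/- BECs lies above Cort+/+ BECs in both environments, whereas Ticrr overlaps under NX/NG and is at 1.51 and 1.63 RPKM against at most 1.27 RPKM after OGD-R.

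Among the mitotic roles the median log2 fold change after OGD-R was 0.26 for the kinases, 0.18 for the checkpoint genes and 0.22 for the spindle genes. Mki67 was at 19.1 and 21.3 RPKM in Cort-/- BECs and at 19.0, 12.4 and 16.9 RPKM in Cort+/+ BECs (0.35, SE 0.20), and Top2a at 22.8 and 23.8 RPKM against 22.4, 18.3 and 20.5 RPKM (0.19, SE 0.12). Neither overlapped, but for both the margin over Cort+/+ replicate 1 was narrow. Ccna2 (18.1 and 18.4 RPKM against 16.2, 16.3 and 17.0 RPKM), Ccnb1 (8.23 and 7.92 RPKM against 7.11, 6.79 and 6.55 RPKM) and Birc5 (9.92 and 10.8 RPKM against 8.71, 9.58 and 8.44 RPKM) were also without overlap. Cdk1 (14.6 and 18.8 RPKM against 15.8, 14.7 and 13.1 RPKM) and Aurkb, the passenger complex kinase (6.86 and 7.79 RPKM against 7.51, 7.31 and 6.33 RPKM), overlapped. Ube2c was at 17.0 and 19.2 RPKM against 15.4, 15.1 and 12.3 RPKM (0.34, SE 0.14), without overlap.

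All 6 MCM subunits were above 0, by 0.17 to 0.28, and Mcm5 stood at an unadjusted p of 0.0399 (limma FDR = 0.999) with 13.3 and 14.9 RPKM in Cort-/- BECs and 12.1, 11.3 and 11.7 RPKM in Cort+/+ BECs. The genotypes did not overlap for the same 4 subunits as under NX/NG. Cdt1 (4.34 and 4.39 RPKM against 4.01, 3.84 and 3.70 RPKM), Pcna (45.5 and 45.6 RPKM against 37.2, 43.8 and 43.7 RPKM) and Brca1 (3.19 and 3.06 RPKM against 2.93, 2.10 and 2.5003 RPKM) did not overlap either. Cdc6 (2.92 and 3.18 RPKM against 2.85, 2.58 and 2.96 RPKM) and Rrm2 (22.9 and 28.7 RPKM against 23.7, 24.99 and 21.9 RPKM) did overlap. The E2F and MYB factors were uneven: E2f1 had a log2 fold change of 0.00 (SE 0.19), with 8.0006 and 11.1 RPKM against 10.9, 8.99 and 8.49 RPKM, while Mybl2 was at 2.63 and 3.31 RPKM against 2.61, 2.04 and 2.29 RPKM (0.34, SE 0.17). Foxm1 was at 8.89 and 10.7 RPKM against 10.6, 7.82 and 7.62 RPKM, and overlapped through Cort+/+ replicate 1.

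After OGD-R 8 of 10 marker sums overlapped between the genotypes. Neuronal markers did not (7.41 and 10.02 RPKM in Cort-/- BECs against 11.4 to 14.7 RPKM), nor did epithelial markers (22.0 and 51.5 RPKM against 10.9 to 21.4 RPKM). Fibroblast and leptomeningeal markers summed to 167 and 212 RPKM in Cort-/- BECs and to 301, 269 and 198 RPKM in Cort+/+ BECs, and endothelial markers to 1600 and 1270 RPKM against 1167, 1239 and 1344 RPKM. Pericyte markers were at lower sums than these (17.9 and 22.7 RPKM against 25.6, 26.1 and 19.6 RPKM). Epithelial markers summed to 51.5 RPKM in Cort-/- replicate 1 after OGD-R and to 73.7 RPKM in Cort+/+ replicate 2 under NX/NG, and to between 10.9 and 22.6 RPKM in the other 8 libraries. The part of these markers in the members' levels was not tested. Ribosomal RNA took 9.65% and 0.0951% of reads in Cort-/- BECs and 0.0775%, 15.8% and 9.46% in Cort+/+ BECs after OGD-R. With a term for that share 50 members were above 0 with a median of 0.18. Higher at an unadjusted p under 0.05 then stood 3 members, against 2.01% of genes.

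The comparisons under NX/NG and after OGD-R share no library, so the members' values can be set side by side. Whether libraries of the 2 environments came from the same pools of mice is not stated, so they may not be independent. A log2 fold change above 0 in both was found for 50 of 56 members, against 32.6% of the 15358 genes tested in both, and below 0 in both for 2 (Ccnd2 and Ccne2), against 33.3%. In 19 members the Cort-/- libraries lay above all Cort+/+ libraries in both environments, against 3.37% of genes, and in 0 members below in both, against 3.46%. The 19 spanned the cycle: Ccnd1 and Ccna2 among cyclins; Aurka, Bub1, Bub1b, Ube2c, Kif11 and Birc5 in mitosis; Mki67, Top2a and Anln; Mcm2, Mcm3, Mcm5, Mcm6, Cdt1 and Cdc45 at origins; and Tyms and Brca1. Without the 2 libraries low in ribosomal RNA, the count was 27 members against 9.96% of genes.

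**Figure D4:**
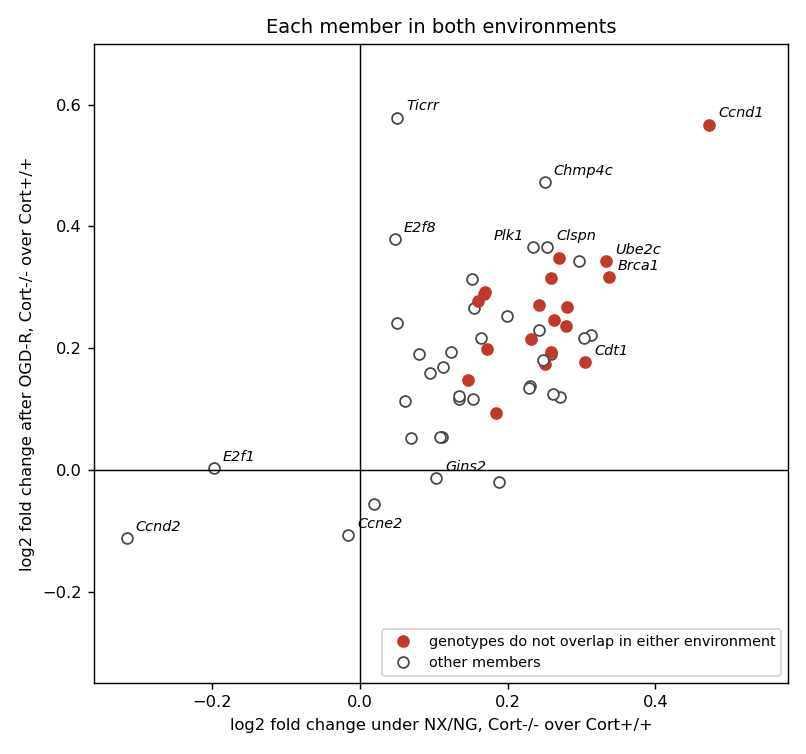
Log2 fold change of Cort-/- over Cort+/+ BECs under NX/NG (horizontal) and after OGD-R (vertical) for each of the 56 members; filled points are the 19 members whose genotypes do not overlap in either environment. Most points lie in the upper right, 50 of 56 above 0 on both axes, Ccnd1 is farthest out and Ccnd2 is at −0.32 and −0.11.

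To use all libraries at once, the genotypes were also compared over both environments in a fit of all 10, a comparison added after the data had been seen. It called 26 of 15714 genes (0.165%) but 0 of the 56 members (limma, FDR of at most 0.05). Before adjustment, at a p under 0.05, stood 32 members higher in Cort-/- BECs, against 5.96% of genes, and 1 lower, Ccnd2, against 7.59%. The median log2 fold change was 0.22, against 0.00 over all genes, and 52 members were above 0, against 49.8% of genes. Ccnd1 came closest to the threshold (0.52, SE 0.11, FDR = 0.113) and passed it under limma-voom on the reads recovered from RPKM (0.52, SE 0.10, FDR = 0.0416) and without Cort+/+ NX/NG replicate 3 (0.60, SE 0.08, FDR = 0.0465). Cdt1 (0.24, SE 0.06, FDR = 0.137), Ccna2 (0.15, SE 0.04, FDR = 0.188) and Ube2c (0.34, SE 0.09, FDR = 0.189) followed. The number of members higher at an unadjusted p under 0.05 was 21 without Cort+/+ NX/NG replicate 1, against 3.89% of genes. It was 21 with a replicate block, against 4.87%, and 34 with a term for the share of ribosomal RNA, against 7.61%. The median was 0.21 without Cort-/- NX/NG replicate 1, 0.21 without Cort-/- NX/NG replicate 2 and 0.18 without Cort-/- OGD-R replicate 3. Without both libraries low in ribosomal RNA the median was 0.19.

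**Figure D5:**
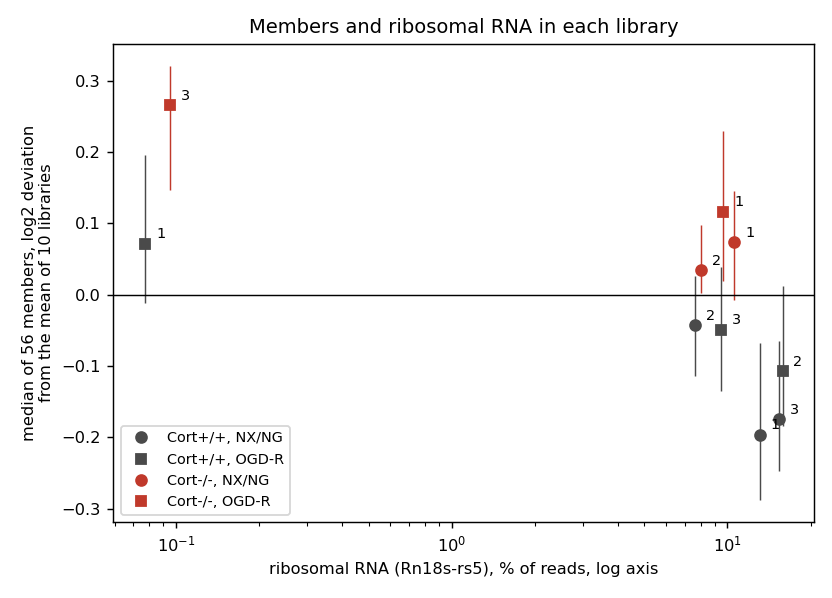
Median over the 56 members of the log2 deviation from the mean of the 10 libraries, rescaled together (vertical; bars run from the lower to the upper quartile of the members), against the share of reads on ribosomal RNA Rn18s-rs5 (horizontal, log axis); numbers are replicates. Cort-/- libraries lie between 0.03 and 0.27 and Cort+/+ libraries between −0.20 and 0.07; the library with the highest median, Cort-/- OGD-R replicate 3, is at 0.0951% ribosomal RNA.

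By library, the members' median deviation from the mean of all 10 rescaled libraries was 0.07 and 0.03 in Cort-/- BECs and −0.20, −0.04 and −0.17 in Cort+/+ BECs under NX/NG. After OGD-R it was 0.12 and 0.27 in Cort-/- BECs and 0.07, −0.11 and −0.05 in Cort+/+ BECs. Within each environment the genotypes did not overlap, while over both, Cort+/+ OGD-R replicate 1 (0.07) lay level with the Cort-/- NX/NG libraries. The Cort-/- OGD-R replicate 3 library alone was the highest of all 10 for 37 of 56 members, against 11.4% of genes.

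The second question was how deprivation and reoxygenation bore on the members within each genotype, for which the reads of both tables were rescaled together. In Cort+/+ BECs 43 of 56 members had a log2 fold change (OGD-R over NX/NG) above 0, against 50.7% of 15759 genes, with a median of 0.11 against 0.00. No member was called (limma, 0 of 56, and 0% of genes; the lowest FDR of a member was 0.534), and limma-voom called 0 genes as well. Higher after OGD-R at an unadjusted p under 0.05 stood 9 members, against 3.95% of genes, and 1 lower, Ccnd1, against 2.55%, and the groups did not overlap in 11 members, higher, against 7.15%, and in 2, lower, against 5.29%. The largest values belonged to genes that act in mitosis. Nusap1, a spindle microtubule bundler, was at 6.94, 7.29 and 7.33 RPKM on the joint scale after OGD-R and at 5.43, 5.198 and 5.68 RPKM under NX/NG (0.40, SE 0.07, unadjusted p = 0.00112). Aurkb was at 7.32, 7.12 and 6.17 RPKM against 4.79, 5.97 and 4.47 RPKM (0.44, SE 0.13), and Top2a at 21.8, 17.9 and 19.98 RPKM against 15.4, 17.2 and 14.7 RPKM (0.33, SE 0.10). For all 3 the environments did not overlap.

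At the other end in Cort+/+ BECs stood the D cyclins and Chmp4c. Ccnd1 was at 129, 135 and 140.2 RPKM on the joint scale after OGD-R and at 145, 177 and 218 RPKM under NX/NG (−0.40, SE 0.15, limma FDR = 0.755). Ccnd2 was at 109.5, 91.6 and 102 RPKM against 122, 111 and 113 RPKM (−0.19, SE 0.09), and Chmp4c at 2.12, 1.63 and 1.31 RPKM against 2.22, 2.53 and 2.06 RPKM (−0.43, SE 0.19). The D cyclins did not overlap between environments, and Chmp4c did. Without the library low in ribosomal RNA (replicate 1 after OGD-R), 38 members stayed above 0 with a median of 0.07. At an unadjusted p under 0.05 then stood 4 higher members, against 5.08% of genes, and 2 lower, near the 3.63% of genes. Without Cort+/+ NX/NG replicate 1 and replicate 3 in turn, 4 and 3 higher members were left, against 2.62% and 2.96% of genes.

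In Cort-/- BECs 43 members were above 0 after OGD-R too, against 48.3% of 15676 genes, with a median of 0.10 against −0.01. No member and no other gene was called (limma, 0 of 56 members and 0% of genes; the lowest FDR of a member was 0.938), limma-voom called 0 genes too, and 6 members stood higher at an unadjusted p under 0.05, against 2.09% of genes, and 0 lower, against 1.79%. The environments did not overlap for 22 members, higher, against 16.2% of genes, and for 3, lower, against 18.1%. E2f8, a repressor among the E2F factors, was at 2.88 and 3.24 RPKM on the joint scale after OGD-R and at 2.14 and 1.95 RPKM under NX/NG (0.56, SE 0.15). Ticrr was at 1.47 and 1.58 RPKM against 1.06 and 1.10 RPKM (0.46, SE 0.20), and Aurkb at 6.68 and 7.59 RPKM against 5.57 and 5.36 RPKM (0.38, SE 0.12), all without overlap. Lowest were Ccnd1 (209 and 191 RPKM against 257 and 238 RPKM, −0.31, SE 0.13), Chmp4c (2.08 and 2.63 RPKM against 2.61 and 2.84 RPKM, −0.21, SE 0.17) and Cdt1 (4.23 and 4.27 RPKM against 4.96 and 4.52 RPKM, −0.15, SE 0.11). Replicate 3 after OGD-R decided the direction of much of the set: without it 32 of 56 members were above 0 with a median of 0.03, and 0 stood at an unadjusted p under 0.05 in either direction. That count was 0 also without either Cort-/- NX/NG library, and without Cort-/- OGD-R replicate 1 the median was 0.18.

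Whether the response to OGD-R differed between the genotypes was tested as an interaction. No member was called (limma, 0 of 56, and 0% of 15714 genes), and 0 members stood at an unadjusted p under 0.05, against 1.06% of genes in favour of a larger OGD-R over NX/NG fold in Cort-/- BECs and 0.821% in favour of a smaller one. The median was −0.01, and 27 members lay above 0, against 46.8% of genes. The largest value was that of Ticrr (0.52, SE 0.27, unadjusted p = 0.0855), with E2f8 (0.32, SE 0.25) and Chmp4c (0.22, SE 0.28) next. Without the 2 libraries low in ribosomal RNA, 25 members were above 0 with a median of −0.03. The lowest were Cdc25c (−0.21, SE 0.30), Cdc6 (−0.16, SE 0.21) and Rrm2 (−0.14, SE 0.17). Above 0 at an unadjusted p under 0.05 stood 1 member under limma-voom, against 0.974% of genes, and 2 without Cort+/+ OGD-R replicate 1, against 1.85%. In the main fit no member's interaction differed from 0 at an unadjusted p under 0.05. At this number of libraries its standard errors leave room for differences as large as those between the genotypes.

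A further 172 genes of the cell cycle, replication and repair, listed from textbook knowledge, were set beside the members. Under NX/NG 129 of 172 had a log2 fold change above 0 in Cort-/- BECs, with a median of 0.10, against 51.5% of all genes, and after OGD-R 110, with a median of 0.10, against 47.7%. In neither was any called (limma, FDR of at most 0.05). Before adjustment, at a p under 0.05, stood 19 higher and 4 lower under NX/NG, against 5.03% and 7.51% of all genes, and 2 higher and 3 lower after OGD-R, near the 1.4% and 2.19% of all genes. The 19 became 5 without Cort+/+ replicate 1, against 2.76% of all genes. Leaving out a Cort-/- library left 1 in that group, and no count is given for it. Without the 2 libraries low in ribosomal RNA, 100 of 172 were above 0 after OGD-R, with a median of 0.07. Medians under NX/NG and after OGD-R were 0.18 and 0.20 for the spindle and cytokinesis motors and regulators (20 genes), 0.16 and 0.17 for DNA damage checkpoint and repair (18), 0.15 and 0.17 for condensin, cohesin and chromatid separation (15), 0.18 and 0.11 for kinetochore and centromere (15) and 0.10 and 0.16 for the replisome and polymerases (27). The 14 ESCRT-III and abscission genes listed beside Chmp4c had medians of 0.02 and −0.04, and none stood at an unadjusted p under 0.05 in either environment. The 14 subunits and regulators of the anaphase-promoting complex had medians of 0.02 and 0.01. The 15 other cyclins and CDKs had medians of −0.0009 and −0.05, with 7 and 6 above 0. Origin recognition and loading (11) had medians of 0.12 and −0.006, with 9 and 5 above 0. Medians were 0.05 and 0.04 for pocket proteins and MuvB core genes (8), and 0.11 and 0.09 for other E2F and DP factors (8).

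Of the CDK inhibitors, which restrain the cyclin kinases, 1 of 7 was above 0 under NX/NG, against 51.5% of all genes, and 3 of 7 after OGD-R, near the 47.7% of all genes, with medians of −0.16 and −0.09. Those above 0 were Cdkn2c in both (0.10, SE 0.17, and 0.32, SE 0.19) and, after OGD-R, Cdkn2b (0.09, SE 0.21) and Cdkn2d (0.05, SE 0.21), named after their values were seen. Cdkn1a (p21) was at 82.7 and 85.9 RPKM in Cort-/- BECs and at 94.5, 94.9 and 92.8 RPKM in Cort+/+ BECs under NX/NG, without overlap (−0.16, SE 0.05, limma FDR = 0.343). After OGD-R it was at 90.7 and 94.4 RPKM against 97.1, 106 and 97.0 RPKM (−0.11, SE 0.11). Cdkn1b (p27) was at 5.44 and 5.43 RPKM against 6.92, 6.62 and 5.37 RPKM under NX/NG, and at 5.99 and 5.38 RPKM against 6.78, 6.67 and 7.22 RPKM after OGD-R (−0.27, SE 0.11, FDR = 0.999), where it did not overlap. Cdkn1c (p57) was at 2.18 and 1.54 RPKM against 5.12, 3.17 and 2.42 RPKM under NX/NG (−0.86, SE 0.34, FDR = 0.402). After OGD-R the lowest log2 fold change of the 7 inhibitors was −0.27, so the difference in Cdkn1c was smaller there. The kinases that cyclin D binds differed little: Cdk4 had log2 fold changes of −0.02 (SE 0.08) and −0.08 (SE 0.12), and Cdk6 of 0.06 (SE 0.09) and −0.06 (SE 0.20), under NX/NG and after OGD-R.

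Over both environments together, limma called none of the 172. Under limma-voom E2f2 (0.70, SE 0.14, FDR = 0.0471), Pola1 (0.42, SE 0.08, FDR = 0.0309) and Sgo2a (0.39, SE 0.08, FDR = 0.0417) were called, all higher in Cort-/- BECs. Pttg1, also called there, was lower. In the main fit with limma, Pttg1 (securin, the inhibitor of separase) had the largest log2 fold change of the 172 in size, and it was named after its values were seen. It was at 2.67 and 2.99 RPKM in Cort-/- BECs and at 4.36, 3.77 and 3.42 RPKM in Cort+/+ BECs under NX/NG, and at 2.86 and 3.11 RPKM against 5.32, 5.36 and 6.61 RPKM after OGD-R. It was thus lower without cortistatin in both environments, with no overlap in either, while 50 of 56 members were above 0 in both. Over both environments its log2 fold change was −0.67 (SE 0.10, limma FDR = 0.053), just short of the threshold of 0.05, and it was called with a filter of 1 RPKM (FDR = 0.0493) and under limma-voom (−0.68, SE 0.12, FDR = 0.0323), without Cort+/+ NX/NG replicate 3 (FDR = 0.0465) and without Cort-/- OGD-R replicate 3 (FDR = 0.0492).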

How the data were processed

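RNA-seq was done on RNA of primary BECs, with 3 mice pooled per replicate. The authors deposited RPKM in 2 tables, 1 for each environment, scaled separately and made with their own pipeline (reanalyzerGSE). The submitters' processing notes name edgeR. The aligner, genome build and annotation were not given in the sources used here. The deposited tables also hold 10 columns of expression categories, and further files hold the authors' own comparisons (fold changes, p-values, mean levels), none of which was used. Groups came from GEO's labels.

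Levels are deposited RPKM. The test, two-sided, was limma (version 3.58.1, run in R 4.3.3), moderated with a mean trend, on log2(RPKM + 0.1). It covered genes averaging 0.5 RPKM or more over the fitted libraries, with Benjamini-Hochberg adjustment (FDR) over all genes tested. Fold changes are on that scale, which understates changes of low genes. Only the libraries of the groups compared were fitted. RPKM times gene length gave whole multiples of 1 read (within 0.05) for nearly all values. The reads thus recovered, between 12386048 and 12390428 per library, were used to rescale both tables together (trimmed mean of M values) for comparisons between environments and for limma-voom. Their near equality may reflect subsampling, on which nothing is stated in the sources used here. P-values measure the spread between pooled cultures. Exact permutation tests used scipy 1.17.1. The fits were tested on simulated data with the same set spread for every gene, not estimated from these data. The simulated libraries did not differ in ribosomal RNA, so the rates below need not hold for the fits here. Of 100 genes changed by 1 on the log2 scale, limma called 54 (genotypes under NX/NG), 57 (genotypes after OGD-R), 72 (environments, Cort+/+) and 11 (environments, Cort-/-). It also called 14, 13, 16 and 10 unchanged genes, and limma-voom called 84, 87, 87 and 60 of the 100. No change under 1 was simulated, and the largest log2 fold change of a member in these comparisons was 0.58.

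The members and lists were chosen with earlier results of these data known. Named were Ticrr, Clspn, Chmp4c and Plk1, the 3 highest and 3 lowest members of each comparison with a mean of at least 1 RPKM, fixed genes of each role, any member called, and fixed CDK inhibitors and kinases. Other cell cycle genes called in any fit were named too. Brca1, Cdt1 and Ube2c were named in every comparison between genotypes once they ranked high in one, and the genes without overlap in both environments were named after their values were seen. The alternatives tried were another pseudocount, other filters, quantile normalization, limma-voom, all groups in one fit, a replicate block, terms for ribosomal RNA and leaving out libraries.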

Additional observations from a re-analysis of the deposited data

How the results depend on the processing

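No member was called in the comparison of genotypes within an environment, of environments within a genotype, or in the interaction, under any alternative run. Of the values summarising a comparison, 321 kept within 1.5 times or within the spread and 59 moved. Counts of all genes called under NX/NG were 54 with limma-voom and 3 with all 4 groups in one fit, against 0. After OGD-R they were 2 with a pseudocount of 1, 1 with limma-voom and 5 with all 4 groups, against 0. With no filter they were 9 for OGD-R over NX/NG in Cort+/+ BECs and 3 for the interaction, and with all 4 groups 1 for OGD-R over NX/NG in Cort-/- BECs, each against 0. For the genotypes over both environments they were 15 with no filter, 152 with limma-voom (1 member, Ccnd1) and 3 with the block, against 26.

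Members at an unadjusted p under 0.05, both directions together, were 7 with a term for the ribosomal RNA share under NX/NG, against 18. Of the 7, 6 stood higher, against 4.51% of genes, and 1 lower, against 5.83%. After OGD-R such members were 4 with a pseudocount of 1, 5 with no filter, 4 with a filter of 1 RPKM, 6 with quantile normalization, 8 with limma-voom and 12 with all 4 groups, against 2. All of these stood higher in Cort-/- BECs, against 1.44% to 2.12% of genes. For OGD-R over NX/NG only 1 library of each genotype was low in ribosomal RNA, so a term for it amounts to leaving it out. Either gave 6 such members in Cort+/+ BECs, against 10, and a member median of 0.029 in Cort-/- BECs, against 0.10. A term for the ribosomal RNA share gave 6 in Cort+/+ BECs, and 0 in Cort-/- BECs, against 6. For the interaction limma-voom gave 1, against 0. The cause was not tested.

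Leaving out 1 library at a time gave 2 to 20 such members under NX/NG, 1 to 10 after OGD-R, 3 to 11 and 0 to 9 for OGD-R over NX/NG in Cort+/+ and Cort-/- BECs, 16 to 36 for the genotypes over both environments and 0 to 2 for the interaction. The median log2 fold change of the members ranged from 0.15 to 0.24, 0.16 to 0.28, 0.07 to 0.15, 0.029 to 0.18, 0.18 to 0.25 and −0.08 to 0.05 in that order. Genes called ranged from 8 to 122 over both environments, where members called ranged from 0 to 1, and from 0 to 2 for the interaction. Where a group was left with 1 library, that library was assumed to vary like the others. The sign turned for 4 named values: Ticrr under NX/NG (range −0.00396 to 0.090, below 0 without Cort+/+ replicate 1), Ccne1 after OGD-R (−0.14 to 0.022, above 0 without Cort-/- replicate 3), E2f1 over both environments (−0.21 to 0.022, above 0 without Cort-/- OGD-R replicate 1) and Rrm2 in the interaction (−0.31 to 0.020, above 0 without the same library).

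As deviations from their group means, same-numbered libraries correlated at −0.04 and −0.07 under NX/NG, and −0.51 and −0.33 after OGD-R. Between environments in Cort+/+ BECs they correlated at −0.06, −0.06 and 0.19. These values cannot decide whether the numbers pair the samples, because the deviations of 2 Cort-/- libraries mirror each other. After OGD-R the highest value, 0.51, joined the 2 libraries low in ribosomal RNA, whose numbers differ. With the replicate block, the members at an unadjusted p under 0.05 were 5 for NX/NG and 0 for OGD-R. Of the 5, 4 stood higher, near the 6.68% of genes, and 1 lower, against 7.84%. No blocked fit could be made for OGD-R over NX/NG in Cort-/- BECs, which share 1 number only.

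The median standard error of a member was 0.097 under NX/NG, 0.13 after OGD-R, 0.084 for the genotypes over both environments and 0.17 for the interaction, which limits how small a difference of a single gene could pass.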
